A study of Homo sapiens with 20 samples.

Results

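The genes described here encode the receptor and the intracellular signalling path of interferon-γ (IFNγ), namely the receptor chains IFNGR1 and IFNGR2, the Janus kinases JAK1 and JAK2, the transcription factors STAT2 and STAT3, and the negative regulators SOCS1, SOCS3 and PTPN2. They were chosen by gene symbol, and all 9 were present among the 43366 genes of the count table. The comparison asked whether these signalling components differed between WT and ZBTB48 KO clones, before and after IFNγ. RNA-seq was performed in U2OS, a human osteosarcoma cell line, on 5 WT clones and 5 clones labelled as ZBTB48 knockout. Each clone was measured untreated (WT, KO) and after 24 h with 250 U/ml IFNγ (WT+IFNγ, KO+IFNγ), which makes 20 libraries with 5 in each of the 4 groups. The replicates of a group are different clones of 1 cell line, and a treated and an untreated library share a clone.

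IFNγ binds a receptor made of IFNGR1 and IFNGR2 chains, and each chain carries a Janus kinase, JAK1 on IFNGR1 and JAK2 on IFNGR2. The activated kinases phosphorylate STAT transcription factors, which form dimers, enter the nucleus and bind GAS elements of target genes, while STAT2 and IRF9 are parts of the ISGF3 complex that binds interferon-stimulated response elements (ISREs) and is best known from type I interferon signalling. SOCS proteins are encoded by target genes of this path and inhibit the kinases or the receptor, and the phosphatase PTPN2 removes phosphate from Janus kinases and STATs. Protein phosphorylation is the main switch of this path, and RNA-seq measures the mRNA of its components.

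The libraries held 46652288 to 72952859 counts, and the lowest count of any of the 9 genes in any library was 222, for SOCS1. All 9 genes passed the filter on low counts in each comparison. ZBTB48 itself was at 8.03 to 11.6 CPM (read counts scaled for library size by TMM) in the 10 WT libraries. In the libraries labelled KO it was at 1.29, 1.94, 11.3, 3.12 and 4.06 CPM untreated and at 1.69, 1.78, 15.8, 3.84 and 5.27 CPM treated (replicates 1 to 5). The ZBTB48 mRNA of KO replicate 3 was thus not below the WT range in either library, unlike that of the other KO clones. Whether this clone still makes the ZBTB48 protein cannot be read from its mRNA. The calls in KO clones and the comparisons with WT clones are also given without this clone. The fits that take the clone as a block were not repeated without it. Treated and untreated libraries with the same number deviated together from their groups in WT clones and in KO replicates 1 to 3 (Pearson's r from 0.64 to 0.85 across 21052 genes, which are not independent), but not in KO replicates 4 and 5 (0.00 and 0.07), where each untreated library was most like the treated library of the other number (0.68 and 0.77). Results that use the clone are therefore also given with these treated libraries exchanged. Of the osteoblast-lineage markers, RUNX2 was at 18.4 to 92.0 CPM and SPARC at 627 to 3361 CPM. COL1A2 did not exceed 0.945 CPM, and SP7, IBSP and BGLAP did not exceed 0.116 CPM. Together, 5 leukocyte markers summed to at most 2.53 CPM in any library, with CD3E at no more than 0.0652 CPM. The 4 epithelial markers summed to as much as 50.3 CPM, with KRT14 up to 44.6 and EPCAM up to 12.7 CPM. The 3 endothelial markers summed to at most 4.13 CPM.

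Compared per length, as TPM (length-scaled counts, computed here from the counts and the gene lengths of the table and summing to the same total in each library), the 9 genes covered a wide range. These lengths cover all annotated exons of a gene, from 1238 bases for SOCS1 to 16913 for JAK1, so the order depends on the annotation. By CPM in untreated WT clones, JAK1 (mean 143) was below STAT3 (198) alone. In untreated WT clones STAT3 was the highest at 113 ± 18.8 TPM (SD, n = 5), followed by IFNGR2 at 88.2 ± 15.1, SOCS3 at 72.5 ± 36.4, STAT2 at 47.0 ± 10.1, IFNGR1 at 40.8 ± 7.13, SOCS1 at 25.4 ± 10.5, JAK1 at 23.6 ± 2.50, PTPN2 at 13.5 ± 4.81 and JAK2 at 3.54 ± 0.406 TPM. JAK2 thus had the lowest TPM of the set, and its range did not meet that of PTPN2, whereas the ranges of all other neighbours in this order overlapped. In untreated KO clones the order ran STAT3, IFNGR2, SOCS3, STAT2, IFNGR1, JAK1, SOCS1, PTPN2 and JAK2, from 89.6 ± 14.8 to 3.89 ± 1.00 TPM. Only JAK1 and SOCS1 had changed places relative to WT, and their ranges overlapped in both genotypes. Of the neighbours in this order, SOCS3 and STAT2, IFNGR1 and JAK1, and PTPN2 and JAK2 did not overlap.

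With IFNγ, STAT2 led the order in both genotypes, at 155 ± 34.7 TPM in WT and 158 ± 19.3 TPM in KO clones (SD, n = 5). STAT3 followed at 126 ± 20.6 and 122 ± 22.7 TPM and SOCS1 at 112 ± 16.5 and 87.8 ± 33.8 TPM, and the ranges of STAT2, STAT3 and SOCS1 overlapped from one to the next. IFNGR2 lay below SOCS1 without overlap in WT+IFNγ (82.5 ± 7.76 TPM) and with overlap in KO+IFNγ (80.6 ± 12.9 TPM). IFNGR1 came next at 52.8 ± 7.87 and 51.3 ± 5.06 TPM, below IFNGR2 with no overlap in either genotype. SOCS3 was at 35.4 ± 10.2 and 30.7 ± 8.82 TPM, overlapping with IFNGR1 in WT+IFNγ but not in KO+IFNγ. JAK2 remained last at 12.5 ± 2.55 and 12.5 ± 3.89 TPM, and now overlapped with its neighbour, PTPN2 in WT+IFNγ and JAK1 in KO+IFNγ.

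**Figure D1:**
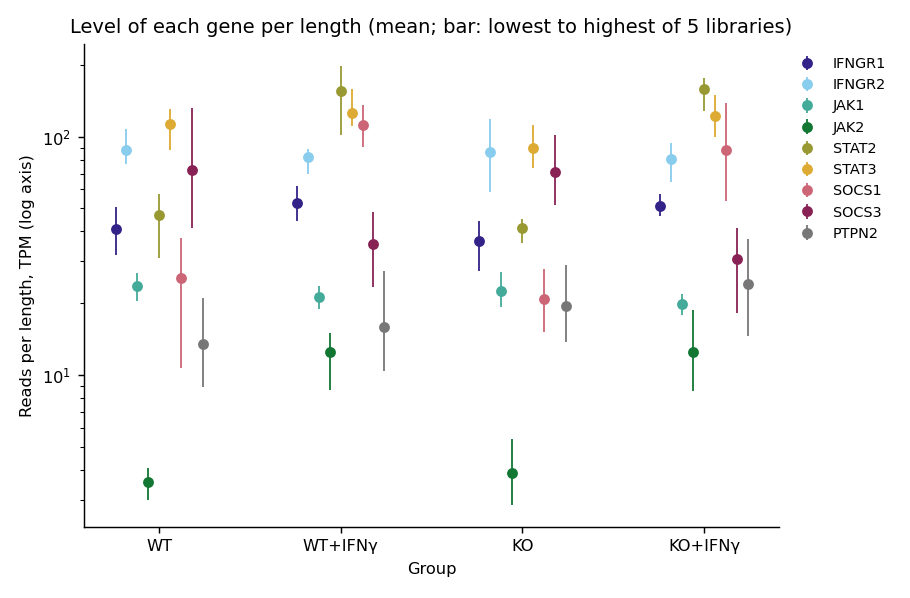
Level of the 9 genes per length in the 4 groups, as mean TPM on a log axis with bars from the lowest to the highest of 5 libraries. STAT2 and SOCS1 climb and SOCS3 drops in the order with IFNγ in both genotypes, and JAK2 is lowest in every group.

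IFNγ raised the mRNA of 3 of the 9 genes in WT clones, the kinase JAK2 (3.70-fold), the transcription factor STAT2 (3.45-fold) and the inhibitor SOCS1 (4.61-fold). The same 3 genes rose in KO clones, by 3.27-fold, 3.89-fold and 4.29-fold. A gene was called when its edgeR adjusted p was under 0.01 and its change more than 2-fold, and 0 of the 9 genes were called lower by this rule in either genotype. Over all genes tested the called shares were 2.48% higher and 0.512% lower in WT (19522 genes), and 1.70% higher and 0.258% lower in KO clones (19385 genes). With an adjusted p under 0.05 and no limit on the fold change, 3 genes were higher and 0 lower in WT (background 6.98% and 4.30%), and 3 were higher and 1 lower, SOCS3, in KO clones (background 5.41% and 2.47%). The median log2 fold change of the 9 genes was 0.30 in WT and 0.47 in KO clones, against -0.03 over all genes tested in each. The groups did not overlap for these 3 genes in WT (exact permutation p = 0.00794 each, the smallest that 5 against 5 libraries can give), as for 6.39% of 21052 genes that were higher. In KO clones they did not overlap for 4 genes that were higher, with IFNGR1, and for 1 that was lower, SOCS3 (5.80% and 3.32% of all genes). In bulk libraries a shift in all cells and a shift in the share of cells with a high level cannot be told apart.

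Taking the clone into account as a block changed this count. At an adjusted p under 0.05 with the block, 6 of the 9 genes rose and 1 fell in WT clones, where 22.9% of all genes were called higher and 24.1% lower by the same rule. In KO clones 5 rose and 1 fell with the clones as labelled (background 11.1% and 9.95%), and 6 rose and 1 fell after exchanging the treated KO libraries 4 and 5 (background 17.9% and 18.8%). The genes added in WT were IFNGR1, STAT3 and PTPN2 among those that rose and SOCS3 as the one that fell. IFNGR2 and JAK1 passed in neither genotype.

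**Figure D2:**
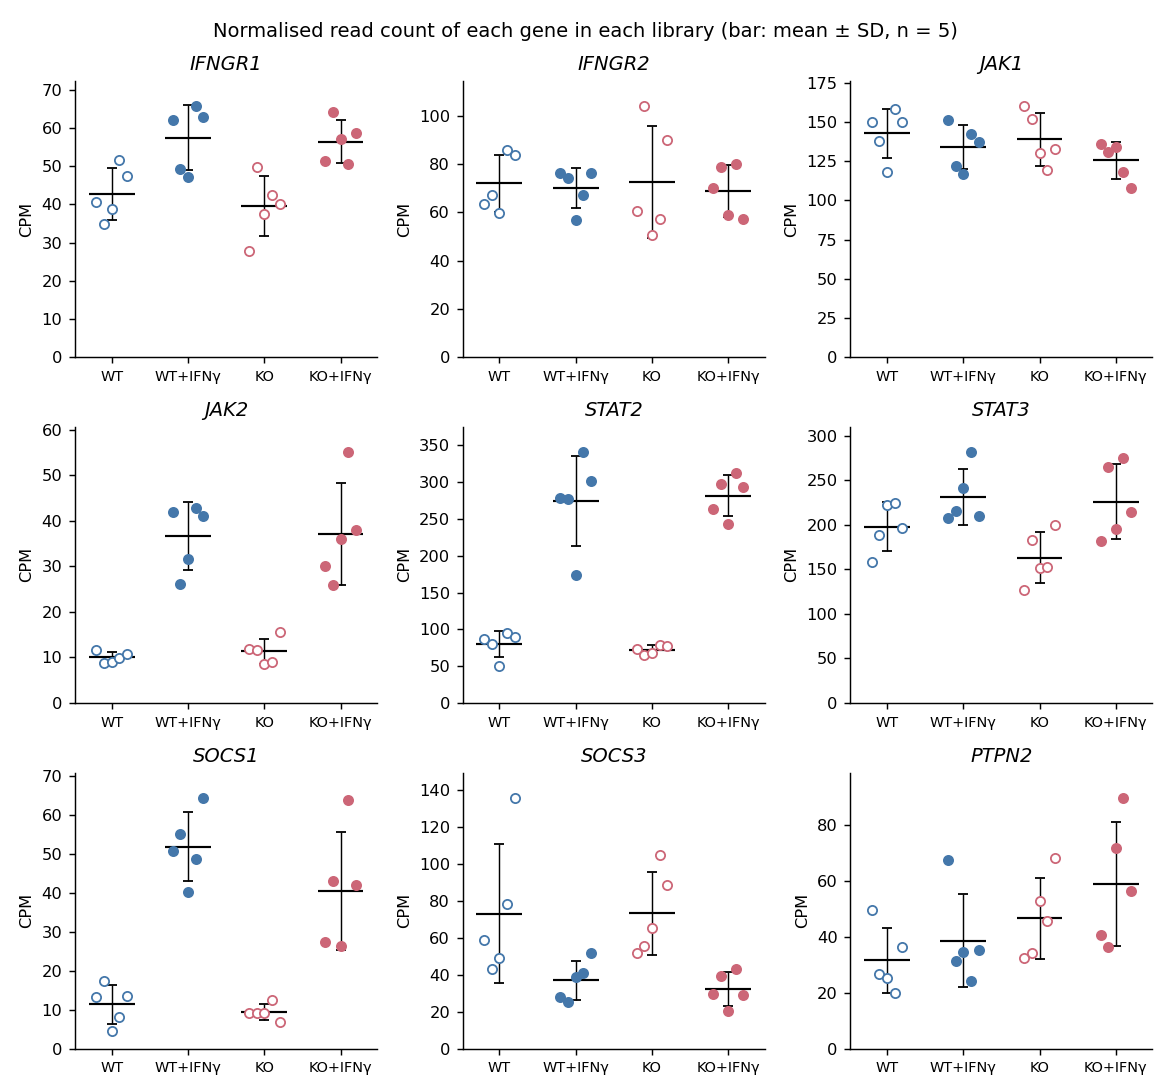
Normalised read count in CPM of each gene in every library, with open circles for untreated and filled circles for treated clones (WT blue, KO red) in the order of replicates 1 to 5, and bars for the mean ± SD of 5 libraries. Treated and untreated libraries separate fully for JAK2, STAT2 and SOCS1, while WT and KO libraries overlap for all 9 genes.

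Of the receptor chains, IFNGR1 (chromosome 6: 137197484 to 137219385, minus strand, GRCh38) encodes the ligand-binding chain and had a fold change under 2 in both genotypes. In WT clones it was at 40.6, 34.9, 38.8, 51.6 and 47.5 CPM untreated and at 62.2, 49.3, 47.1, 65.7 and 62.9 CPM treated. In KO clones it was at 27.9, 49.7, 37.6, 42.4 and 40.2 CPM untreated and at 51.4, 64.2, 57.0, 50.5 and 58.8 CPM treated. Each treated library was above the untreated library of its clone, in 5 of 5 WT and 5 of 5 KO clones, and the groups did not overlap in KO clones but did in WT clones. The fold change was 1.36 in WT (log2 0.44, SE 0.14, edgeR adjusted p = 0.0722) and 1.42 in KO clones (log2 0.51, SE 0.15, edgeR adjusted p = 0.0602), neither past an adjusted p of 0.05. DESeq2 without shrinkage gave adjusted p = 0.0365 in WT and 0.0208 in KO clones, both past 0.05. With the clone as a block the rise in WT had an edgeR adjusted p of 6.98e-05 (log2 0.44, SE 0.06), and that in KO clones one of 0.0127 as labelled and 0.00151 with the exchange (log2 0.53 in both).

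IFNGR2 (chromosome 21: 33402882 to 33437516, plus strand), the signal-transducing chain, showed no change beyond the spread between clones. It was at 63.6, 67.3, 59.8, 85.8 and 83.7 CPM in WT and at 76.2, 74.4, 56.7, 67.2 and 76.1 CPM in WT+IFNγ. It was at 60.6, 104, 50.7, 57.2 and 89.8 CPM in KO and at 70.1, 78.9, 58.8, 80.0 and 57.1 CPM in KO+IFNγ. The untreated libraries of KO replicates 2 and 5 were the highest of all 20. The interval of the fold change ran from 0.803 to 1.21 in WT and from 0.696 to 1.30 in KO clones (95%). Exons of IFNGR2 overlap those of TMEM50B on the other strand, and those of JAK1 overlap RAVER2, and whether the counting used the strand is not given in the sources used here.

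Of the kinases, JAK2 (chromosome 9: 4984390 to 5129948, plus strand) rose and JAK1 (chromosome 1: 64833229 to 65067746, minus strand) did not pass the test. JAK2 was at 11.7, 8.86, 9.04, 9.91 and 10.8 CPM in WT and at 41.9, 26.1, 31.7, 42.9 and 41.1 CPM in WT+IFNγ. It was at 11.8, 11.7, 8.62, 8.97 and 15.5 CPM in KO and at 30.1, 25.9, 36.0, 55.1 and 38.0 CPM in KO+IFNγ. Each of the 10 treated libraries exceeded each of the 10 untreated ones, with the highest value in KO+IFNγ replicate 4. The log2 fold change was 1.89 in WT (SE 0.17, edgeR adjusted p = 3.87e-05) and 1.71 in KO clones (SE 0.23, edgeR adjusted p = 0.00146). Without both libraries of KO replicate 3 the rise in KO clones was 1.65 on the log2 scale with an edgeR adjusted p of 0.0158, which misses the 0.01 threshold.

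JAK1 was at 150, 138, 118, 158 and 150 CPM in WT and at 151, 122, 117, 142 and 137 CPM in WT+IFNγ. It was at 160, 152, 130, 119 and 133 CPM in KO and at 136, 131, 134, 118 and 108 CPM in KO+IFNγ. The coefficients of variation were from 9.4% to 12.0% in the 4 groups. The 95% interval of the fold change with IFNγ ran from 0.795 to 1.13 in WT and from 0.762 to 1.07 in KO clones. The 2 kinases of the receptor thus had different values with IFNγ, a log2 fold change of -0.08 for JAK1 against 1.89 for JAK2 in WT, and of -0.15 against 1.71 in KO clones.

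Of the transcription factors, STAT2 (chromosome 12: 56341597 to 56360107, minus strand) rose in each of the 10 clones. It was at 87.6, 79.9, 50.4, 95.3 and 89.0 CPM in WT and at 279, 277, 174, 341 and 301 CPM in WT+IFNγ. It was at 72.9, 65.4, 68.2, 78.5 and 77.3 CPM in KO and at 264, 297, 243, 312 and 293 CPM in KO+IFNγ. WT replicate 3 was the lowest of its group both untreated and treated, and no treated library reached down to an untreated one. The log2 fold change was 1.79 in WT (SE 0.21, edgeR adjusted p = 0.000299) and 1.96 in KO clones (SE 0.11, edgeR adjusted p = 1.51e-06). Without both libraries of KO replicate 3 the value in KO clones was 1.99 (edgeR adjusted p = 5.90e-05). With the clone as a block the SE in WT fell to 0.05.

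STAT3 (chromosome 17: 42313324 to 42388442, minus strand), best known as the factor downstream of the interleukin-6 family, had smaller differences. It was at 158, 189, 222, 225 and 197 CPM in WT and at 208, 216, 241, 282 and 210 CPM in WT+IFNγ. It was at 127, 183, 152, 153 and 200 CPM in KO and at 182, 265, 195, 275 and 214 CPM in KO+IFNγ. The treated and untreated ranges overlapped in both genotypes, although each treated library was above the untreated library of its clone. The fold change was 1.18 in WT (log2 0.24, SE 0.13, edgeR adjusted p = 0.278) and 1.39 in KO clones (log2 0.47, SE 0.16, edgeR adjusted p = 0.0928). With the clone as a block STAT3 passed an adjusted p of 0.05, at 0.00276 in WT and at 0.0210 as labelled or 0.000377 with the exchange in KO clones (edgeR).

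The 2 SOCS genes of the set had fold changes of opposite sign. SOCS1 (chromosome 16: 11254417 to 11256204, minus strand), an inhibitor of JAK1 and JAK2, was at 13.2, 17.4, 4.51, 8.28 and 13.5 CPM in WT and at 50.7, 55.1, 40.2, 48.7 and 64.4 CPM in WT+IFNγ. It was at 9.27, 9.25, 9.31, 12.6 and 6.83 CPM in KO and at 27.4, 43.1, 26.4, 63.7 and 42.1 CPM in KO+IFNγ. All 10 treated libraries were above all 10 untreated ones. WT replicate 3 was lowest in both WT groups, and the untreated WT clones had a coefficient of variation of 44.1%. The log2 fold change was 2.20 in WT (SE 0.31, edgeR adjusted p = 0.000975) and 2.10 in KO clones (SE 0.26, edgeR adjusted p = 0.000788). Without both libraries of KO replicate 3 the value in KO clones was 2.22 (edgeR adjusted p = 0.00492).

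SOCS3 (chromosome 17: 78356778 to 78360925, minus strand), which inhibits signalling from the gp130 receptor, had fold changes below 1 with IFNγ. It was at 59.0, 43.5, 49.2, 78.5 and 136 CPM in WT and at 28.3, 25.1, 38.7, 41.2 and 51.9 CPM in WT+IFNγ. It was at 52.1, 55.9, 65.5, 105 and 88.5 CPM in KO and at 29.5, 39.2, 20.5, 43.5 and 29.1 CPM in KO+IFNγ. The treated library was below the untreated one in 5 of 5 WT and 5 of 5 KO clones, and the groups did not overlap in KO clones. The log2 fold change was -0.97 in WT (SE 0.32, edgeR adjusted p = 0.0744) and -1.18 in KO clones (SE 0.25, edgeR adjusted p = 0.0148). Without the untreated library of WT replicate 5, the highest of its group, the value in WT was -0.62. The treated library of that clone, also the highest of its group, stayed in this fit. Clone by clone, the WT values were -1.05, -0.78, -0.34, -0.92 and -1.39 (log2, replicates 1 to 5). Without both libraries of KO replicate 3 the value in KO clones was -1.09 with an edgeR adjusted p of 0.0641. With the clone as a block SOCS3 fell by 0.89 on the log2 scale in WT clones (edgeR adjusted p = 0.00145) and by 1.18 in KO clones (edgeR adjusted p = 0.00499 as labelled and 0.00336 with the exchange). DESeq2 without shrinkage also called the fall in KO clones (adjusted p = 0.000244).

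The stretches of 250 bases before the RefSeq start sites of these SOCS genes are shown because their fold changes with IFNγ had opposite signs (5′ to 3′ on the gene's strand, RefSeq, GRCh38.p14, SOCS1 at chr16:11256205-11256454 and SOCS3 at chr17:78360926-78361175, both on the minus strand). Capitals mark the only match to the motifs searched, an ISRE core in SOCS1 113 to 104 bases before the start, at chr16:11256308-11256317.
SOCS1: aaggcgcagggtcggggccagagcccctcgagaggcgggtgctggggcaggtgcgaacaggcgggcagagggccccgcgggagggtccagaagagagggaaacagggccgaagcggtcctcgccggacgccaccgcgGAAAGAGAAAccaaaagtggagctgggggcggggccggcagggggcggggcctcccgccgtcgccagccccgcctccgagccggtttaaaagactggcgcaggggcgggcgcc
SOCS3: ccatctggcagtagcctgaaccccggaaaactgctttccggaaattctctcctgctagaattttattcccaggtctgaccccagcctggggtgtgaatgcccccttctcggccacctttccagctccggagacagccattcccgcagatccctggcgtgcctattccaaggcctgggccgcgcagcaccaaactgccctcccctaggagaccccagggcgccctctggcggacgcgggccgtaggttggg
The motifs searched on both strands were the GAS forms TTCNNNGAA and TTCNNNNGAA and the ISRE core, GAAA followed by GAAA after any 2 bases, which reads TTTC followed by TTTC on the other strand. All 9 genes matched the promoter table, and SOCS1 was the 1 gene with any match in the 250 bases before the table's start site. The table's start site can differ from the outer end of the gene in the count table. The windows of IFNGR2 and PTPN2 thus lay inside the gene's span and that of IFNGR1 overlapped it. Over the 35116 promoters of the table, 6.57% held the first GAS form, 5.38% the second, 3.02% the ISRE core and 13.9% any of them. A match describes letters and not binding, and elements outside these windows were not searched.

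PTPN2 (chromosome 18: 12785478 to 12884237, minus strand), the T-cell protein tyrosine phosphatase, varied widely between clones. It was at 49.6, 26.6, 25.4, 20.04 and 36.5 CPM in WT and at 67.3, 31.5, 34.5, 24.3 and 35.2 CPM in WT+IFNγ. It was at 32.6, 34.4, 52.7, 45.5 and 68.0 CPM in KO and at 40.5, 36.4, 71.9, 89.7 and 56.4 CPM in KO+IFNγ. WT replicate 1 was the highest of the WT clones and WT replicate 4 the lowest, in both conditions, and the highest library of a group held 2.09 to 2.77 times the lowest. The fold change with IFNγ was 1.23 in WT (log2 0.30, SE 0.30, edgeR adjusted p = 0.606) and 1.27 in KO clones (log2 0.34, SE 0.28, edgeR adjusted p = 0.518). With the clone as a block it passed an adjusted p of 0.05 in WT (edgeR adjusted p = 0.00582) and, only with the exchange, in KO clones (edgeR adjusted p = 0.221 as labelled and 0.00943 exchanged). Pseudogene copies, PTPN2P1 on chromosome 1 and PTPN2P2 on chromosome 13, are annotated in RefSeq but were not rows of the count table. Only uniquely mapped reads were counted, so the part of PTPN2 reads lost to these copies is not known.

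Between genotypes none of the 9 genes was called, either untreated or with IFNγ, by the fit across all genes, and the ranges of all 9 overlapped in both comparisons. Over all 21052 genes, 0.603% were higher and 0.366% lower in WT without overlap untreated, and 0.480% and 0.299% with IFNγ, so that 0 of 9 is no result about these genes. Called shares over all genes were 0.0154% untreated and 0.0155% with IFNγ, or 0.0308% and 0.0206% at an adjusted p under 0.05. The edgeR adjusted p of the 9 genes was at least 0.980 in both, 0 of the 9 had an unadjusted p under 0.05, and DESeq2 called 0 with or without shrinkage. The median of the absolute log2 differences was 0.14 untreated and 0.04 with IFNγ, against 0.17 and 0.18 over all genes tested. All genes tested include ones with far lower counts than these 9, so the medians compare unlike sets. Without both libraries of KO replicate 3, 0 of the 9 genes were called in either comparison, and the log2 difference of PTPN2 (WT minus KO) was -0.52 untreated and -0.53 with IFNγ and that of STAT3 was 0.25 and -0.02.

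**Figure D3:**
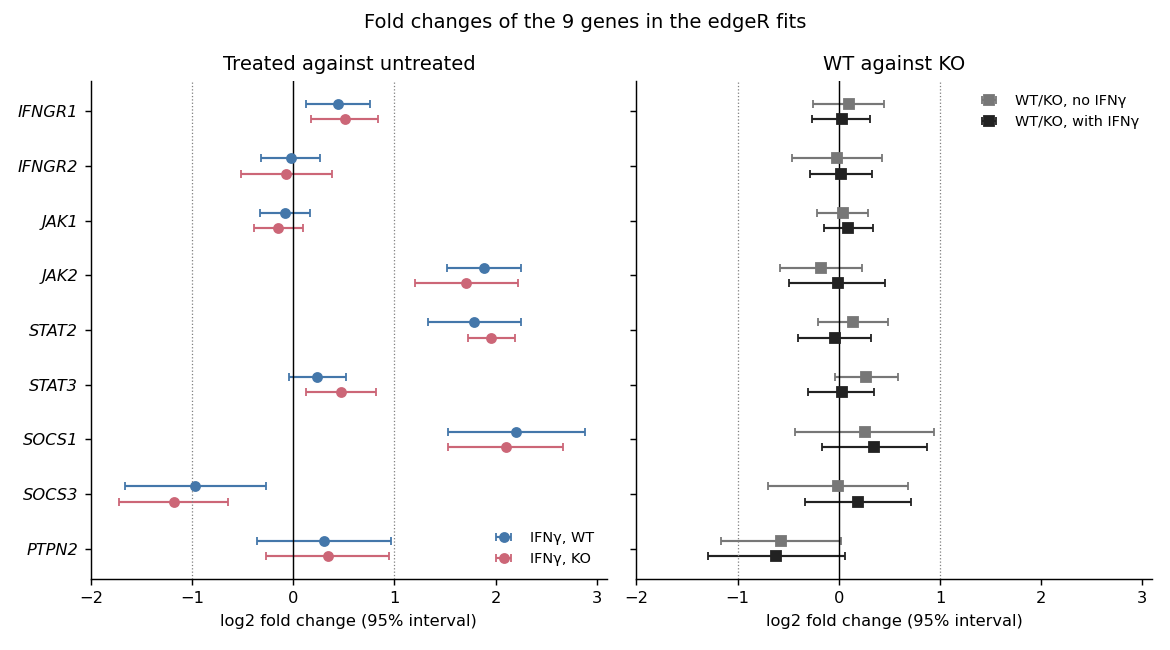
Log2 fold changes with 95% intervals from the edgeR fits, on the left IFNγ-treated against untreated libraries in WT (blue) and KO (red) clones, on the right WT against KO libraries without (grey) and with (black) IFNγ, where dotted lines mark a 2-fold change. On the left, the intervals of JAK2, STAT2, SOCS1 and IFNGR1 lie above 0 in both genotypes and that of STAT3 in KO clones only. Those of SOCS3 lie below 0, and all 18 intervals on the right include 0.

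The intervals limit how large a difference between genotypes could be. For the receptor chains and JAK1 the 95% interval of WT over KO ran from 0.841 to 1.37 for IFNGR1, from 0.728 to 1.34 for IFNGR2 and from 0.861 to 1.22 for JAK1 in untreated clones. With IFNγ it ran from 0.834 to 1.24, from 0.824 to 1.25 and from 0.898 to 1.26. For JAK2, the log2 difference was -0.18 (-0.58 to 0.23) untreated and -0.01 (-0.49 to 0.46) with IFNγ, and for STAT2 it was 0.14 (-0.21 to 0.49) and -0.04 (-0.40 to 0.32). SOCS1 and SOCS3 were less precisely measured, and in untreated clones their intervals extended to 0.94 and 0.68 on the upper side and to -0.43 and -0.70 on the lower side (log2).

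The lowest exact permutation p between genotypes belonged to STAT3 and PTPN2. PTPN2 was lower in WT than in KO clones by a log2 difference of -0.57 untreated (95% interval -1.16 to 0.02, edgeR adjusted p = 0.980) and of -0.62 with IFNγ (-1.29 to 0.06, edgeR adjusted p = 0.996). The exact permutation test on log2(CPM + 0.5) gave a two-sided p of 0.103 in both conditions (n = 5 and 5, where 0.00794 is the smallest p this design can give). The comparisons share clones and are not independent of each other. Leaving out single libraries moved the value from -0.80 to -0.39 untreated and from -0.91 to -0.41 with IFNγ. STAT3 was higher in untreated WT than KO clones by 0.27 (-0.04 to 0.59, exact permutation p = 0.0873), and by 0.03 (-0.30 to 0.35) with IFNγ. Neither gene passed a test.

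The IFNγ response itself was then compared between genotypes over all 20 libraries. The edgeR test of the difference of responses called 0 of the 9 genes, as it called 0 of all 21052 genes (0%), of which 86, and none of the 9, had an unadjusted p under 0.05. DESeq2 and the fit with the clone as a block also called 0 of the 9. The log2 differences of responses (WT minus KO) ranged from -0.25 for STAT3 (95% interval -0.68 to 0.18) to 0.20 for SOCS3 (-0.67 to 1.07). For the genes that rose they were 0.16 for JAK2 (-0.43 to 0.74), -0.19 for STAT2 (-0.67 to 0.29) and 0.09 for SOCS1 (-0.76 to 0.93). Without both libraries of KO replicate 3 they were 0.23, -0.22 and -0.03, and 0 of the 9 genes were called.

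**Figure D4:**
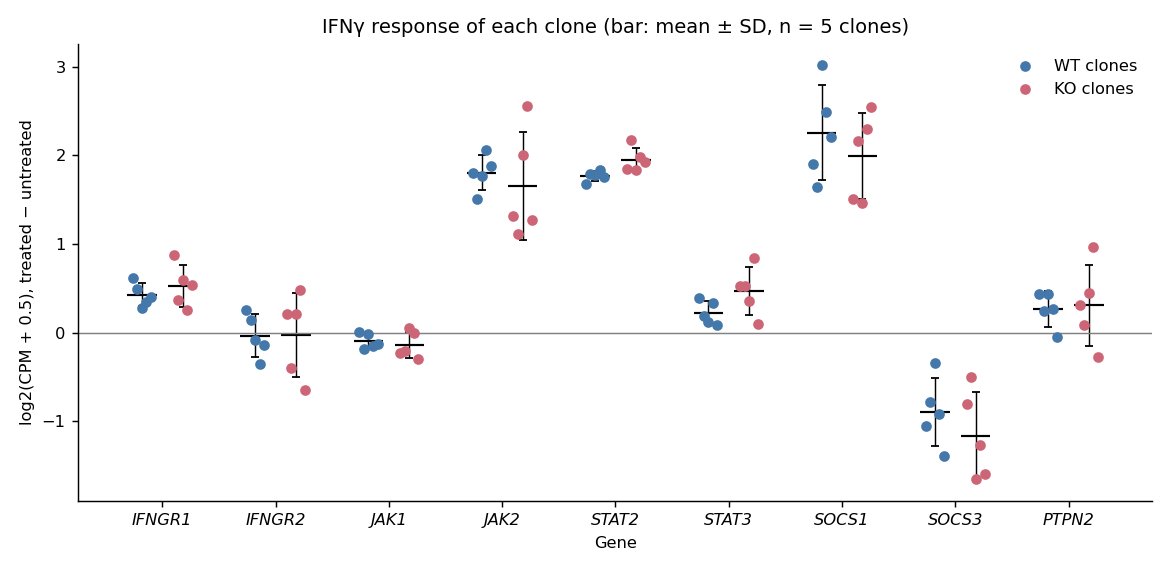
IFNγ response of each clone, as log2(CPM + 0.5) of the treated minus the untreated library, for WT (blue) and KO (red) clones, with bars for the mean ± SD of 5 clones. The STAT2 points lie from 1.67 to 1.83 in WT and from 1.83 to 2.17 in KO clones, and those of SOCS1 and JAK2 spread the most among the genes that rose.

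Computed clone by clone, the responses of the 9 genes gave 9 exact permutation tests with no adjustment. STAT2 responded by 1.67, 1.79, 1.78, 1.83 and 1.75 on the log2 scale in WT and by 1.85, 2.17, 1.83, 1.98 and 1.92 in KO clones. The WT mean of 1.76 ± 0.06 was below the KO mean of 1.95 ± 0.14 (SD, n = 5), a difference of -0.19 with an exact permutation p of 0.0159, unchanged by the exchange of KO replicates 4 and 5. It kept an exact p under 0.05 when any 1 clone was left out (0.00794 to 0.0397, n = 4 and 5). It is the sole member below 0.05 with the clones as labelled, it was not called by the fit over all genes (edgeR adjusted p = 1.00), and its size is small beside the response.

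STAT3 responded by 0.39, 0.19, 0.12, 0.33 and 0.09 in WT and by 0.52, 0.53, 0.36, 0.84 and 0.10 in KO clones. The means were 0.22 ± 0.13 and 0.47 ± 0.27, with an exact permutation p of 0.103. Exchanging KO replicates 4 and 5 narrowed the KO values to 0.36 to 0.53 (SD 0.07) and gave an exact p of 0.0159, and leaving out KO replicate 5 gave an exact p of 0.0238 (n = 5 and 4). The same exchange narrowed the SD of the KO responses from 0.46 to 0.14 for PTPN2, from 0.47 to 0.26 for IFNGR2 and from 0.61 to 0.41 for JAK2. It widened the SD from 0.48 to 0.69 for SOCS1 and from 0.50 to 0.56 for SOCS3. The mean responses of the other 7 genes differed between genotypes by 0.27 or less on the log2 scale, with exact permutation p from 0.349 to 1.00.

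Of 31 other genes of the pathway, 3 were called higher in WT clones and 3 in KO clones, against 2.48% and 1.70% of all genes tested, and they were the same genes. IRF9, the DNA-binding partner of STAT2 in ISGF3, rose by 2.28 on the log2 scale in WT and by 2.27 in KO clones (edgeR adjusted p = 8.75e-06 and 1.81e-05). USP18, which binds STAT2 and dampens type I interferon receptors, rose by 2.02 and 2.03 (0.00116 and 0.00796). SH2B3, an adaptor that restrains JAK2, rose by 1.33 and 1.35 (0.000433 and 0.00992). In KO clones the count of 3 dropped to 1 when any 1 of KO+IFNγ replicates 1, 3, 4 and 5 or KO replicates 3, 4 and 5 was left out, and to 1 without both libraries of KO replicate 3.

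No gene of the remaining families met the call rule. With the clone as a block and an adjusted p under 0.05, 11 of the 31 genes were higher and 12 lower in WT clones, where 22.9% and 24.1% of all genes were. In KO clones 5 were higher and 1 lower as labelled (background 11.1% and 9.95%), and 7 and 7 with the exchange (background 17.9% and 18.8%). None of 8 other receptor chains, 2 other Janus kinases (JAK3 and TYK2) or 4 PIAS genes was called in any of the comparisons without the block. Of the 6 other SOCS family genes, CISH (log2 -0.89, edgeR adjusted p = 0.0285) and SOCS5 (-0.52, edgeR adjusted p = 0.0279) were lower in WT clones at an adjusted p under 0.05 without the block and had -0.53 and -0.51 in KO clones, where neither passed. PTPN6 was too low to be tested in KO clones with IFNγ. None of the 31 genes was called between genotypes or in the difference of responses, with 1, 1 and 0 at an unadjusted edgeR p under 0.05. The 1 gene was IL10RB in both, higher in WT by 0.23 untreated and 0.27 with IFNγ (log2, edgeR adjusted p = 0.980 and 0.996). Its WT and KO libraries did not overlap in either condition, as for 0.603% and 0.480% of all genes that were higher in WT. Both comparisons share clones, and it is 1 gene picked from 31. The median log2 fold change of the genes tested was -0.07 in WT (31 genes) and 0.02 in KO clones (30 genes) with IFNγ.

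The genes most like each member over the 20 libraries are given as a description by Pearson's r of log2(CPM + 0.5), where the points share clones and treatment. IFITM1 and IFIT5 were among the genes most like STAT2 (each 0.97), JAK2 was most like CD274 and TRAFD1 (each 0.97) and FATE1 (0.96), and SOCS1 most like OGFR (0.95), STAT2 and LOC105371082 (each 0.94). IFNGR1 was most like DR1, SH2B3 and TMEM267 (each 0.92), and STAT3 most like RHNO1 (0.90), TNFRSF1A and SGCB (each 0.87). SOCS3 was most like KIAA2013 and HENMT1 (each 0.90) and BOLA3-DT (0.88). IFNGR2 was most like UBE2Q1, CRK and HNRNPLL (each 0.82), and JAK1 most like TANC1 (0.87), NPIPB11 (0.81) and PPM1K (0.80). CD274 lies on chromosome 9 with JAK2, and LOC105371082 on chromosome 16 with SOCS1. PTPN2 stood out because all 3 of its genes, SEH1L (0.93), YES1 (0.91) and RNMT (0.88), lie on chromosome 18, as PTPN2 does.

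This position was followed up with the deviations of each library from its group mean, a description chosen after the values were seen. Of the 50 genes whose deviations were most like those of PTPN2, 10 lay on chromosome 18, which holds 1.58% of the 21052 genes. The 92 genes within 10 Mb of PTPN2 had a median r of 0.39, against -0.04 for all genes, and 42.4% of them exceeded 0.5, against 6.85% of all genes. STAT2 showed the same kind of value on chromosome 12, which held 23 of its 50 most similar genes and 5.28% of all genes. The 291 genes within 10 Mb of STAT2 had a median r of 0.40, against -0.01, and 41.2% exceeded 0.5, against 6.69%. For JAK2 the median of 51 genes within 10 Mb was 0.36, against -0.02 for all genes, and 27.5% exceeded 0.5, against 3.58%. For the other 6 genes the median lay from -0.06 to 0.15. The share above 0.5 was 17.3% for JAK1 (7.55% of all genes) and 6.80% for SOCS1 (2.24%). It was 12.5% for IFNGR1 (11.4%), 10.1% for IFNGR2 (9.24%), 8.03% for SOCS3 (6.05%) and 6.14% for STAT3 (8.37%). The clone-to-clone differences of PTPN2 and STAT2, and with fewer genes those of JAK2, thus went with those of many genes nearby on the chromosome. What they share was not tested. The libraries share clones, and WT replicate 3 stood apart for STAT2. It was at 50.4 CPM untreated (other WT clones 79.9 to 95.3) and at 174 CPM treated (277 to 341). The r values were not computed without this clone. The 3 genes whose deviations were most like those of STAT2, NMB, TMEM176A and ADAMTS7, lie on chromosomes 15, 7 and 15.

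**Figure D5:**
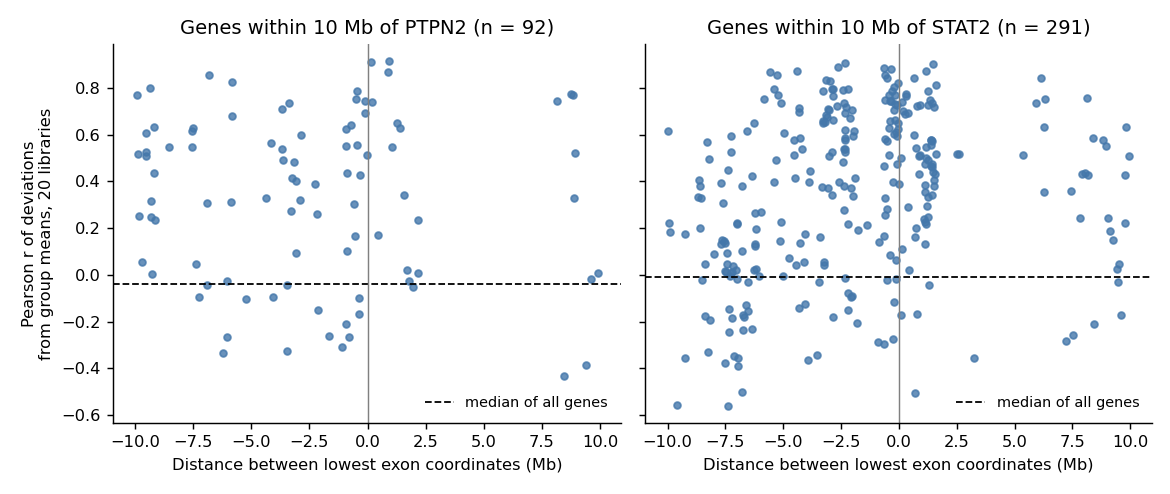
Pearson's r between the deviations from group means of PTPN2 (left) or STAT2 (right) and those of each gene within 10 Mb over 20 libraries, against the distance in Mb, with a dashed line at the median of all genes. Most neighbours of both genes lie above the dashed line, with medians of 0.39 and 0.40.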

How the data were processed

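RNA-seq (polyA RNA, stranded mRNA libraries, paired-end) was measured in 20 libraries, 5 clones in each of 4 groups. The authors aligned reads to GRCh38 with STAR 2.7.9a and a RefSeq annotation, kept uniquely mapped reads and counted them per gene with featureCounts 2.4.0. They deposited raw counts, with no normalization, and samples were matched to columns by the clone name in the labels. Totals of 46652288 to 72952859 counts per library limit the precision of low genes.

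Each comparison was fitted on its 10 libraries (the difference of responses on all 20) with edgeR 4.0.16 in R 4.3.3, using TMM, filterByExpr and the quasi-likelihood test (robust), with Benjamini-Hochberg adjustment over all genes tested. The cut-offs, an adjusted p under 0.01 and more than 2-fold, follow the limits the study set on p and fold for WT against KO clones and were applied here, with p adjusted, to every comparison, although the study set a higher fold limit for treated against untreated clones. The study used DESeq2 (here 1.42.0, an alternative). Standard errors and 95% intervals were derived from the F statistic, CPM are TMM-scaled over 20 libraries, and log2 values of CPM used a pseudocount of 0.5. The script was tested on simulated data. The labels name clones, so that replicate numbers pair libraries within a genotype. Numbers do not pair WT with KO clones. All 9 genes are named, with the pathway genes called and the 3 genes most like each. A gene of the pathway list and a leukocyte marker are not reported here and were left out of the counts of their lists. The genes and lists were chosen with earlier results of these data known. Columns of other samples numbered 0.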

Additional observations from a re-analysis of the deposited data

Results flagged for a closer look

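1 value stood apart from its group by Dixon's test, PTPN2 in the treated WT clones, where replicate 1 was at 67.3 CPM and the other 4 libraries at 24.3 to 35.2 CPM. The gap was 0.746 of the range, against a limit of 0.71. The untreated library of the same clone was also the highest of its group, at 49.6 CPM. Of 36 groups of 5 libraries tested, chance alone sets about 1.8 apart. Without this treated library the log2 fold change of PTPN2 with IFNγ in WT was 0.00 in place of 0.30, with the untreated library of the clone kept. Clone by clone, the WT responses were 0.44, 0.24, 0.44, 0.27 and -0.05 (log2, replicates 1 to 5). The WT to KO difference with IFNγ was -0.91 without it, in place of -0.62.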

How the results depend on the processing

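The alternatives were DESeq2 with and without shrinkage, DESeq2's size factors, library totals, no filter, all 20 libraries in 1 fit, an adjusted p under 0.05 with no fold limit, a replicate block and leaving out each library. With the replicate block and an adjusted p under 0.05, both together chosen after the data were seen, 7 of the 9 genes passed with IFNγ in WT, and 6 in KO clones, or 7 with KO replicates 4 and 5 exchanged, in place of 3. With the block and the 2-fold limit the counts were 3 in WT and 4 in KO clones, and 0 for the difference of responses. Between genotypes the block joined WT and KO clones by replicate number, which does not pair them, so its count of 0 is no check. Its values are among the alternatives counted below. Leaving out libraries kept 3 calls with IFNγ in WT and 2 to 3 in KO clones, where 2 came from leaving out both libraries of KO replicate 3, and 0 in the other comparisons. Each alternative was judged by the rule of its own setting, which for some was an adjusted p under 0.05 with no fold limit. Of 864 alternative log2 fold changes of the 9 genes, 848 kept the call of the main fit and 15 newly passed. A further 1 (JAK2 in KO clones) no longer passed and 0 called values reversed. Uncalled values between genotypes changed sign in 15 of 162 alternatives untreated and in 18 of 162 with IFNγ. Of 108 alternatives for the clone responses, 2 newly passed, both for STAT3. Depth did not limit these genes, since the lowest count was 222, and the spread between clones set the width of the intervals.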

Other observations

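Between members, the deviations of libraries from their group means went together most for STAT2 and SOCS1 (Pearson's r = 0.61 over 20 libraries, which share clones), JAK2 and PTPN2 (0.53) and IFNGR1 with IFNGR2 (0.51). The lowest value was -0.23, for JAK1 and STAT3. For STAT2 and SOCS1, WT replicate 3 was lowest for both genes in WT and in WT+IFNγ. KO replicate 4 was highest for both in KO and in KO+IFNγ, and KO replicate 3 was lowest for both in KO+IFNγ. These are values only, and no test was made.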
